A study of Arabidopsis thaliana with 3 samples.

Results

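The genes described here are the numbered MYB transcription factor genes of Arabidopsis thaliana, read for the presence of chromatin regions bound by LDL1. They were taken as all nuclear protein-coding genes whose symbol or synonym is MYB followed only by a number, which gave 125 of 27444 nuclear protein-coding genes. Of these, 115 carry the name as their current symbol and 10 as a synonym, among them MYB44 (current symbol MYBR1), MYB75 (PAP1) and MYB91 (AS1). CCA1, LHY and the RVE genes fall outside this naming rule, as do the 3R-MYB genes, whose names are written with an R.

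MYB proteins bind DNA through a domain built of imperfect repeats. Plants carry a large class with a pair of such repeats, called R2R3-MYB, whose members act as switches of specialised metabolism, cell fate, wall and cuticle formation, reproduction and stress responses. Close relatives are grouped in numbered subgroups by motifs outside the DNA-binding domain, and genes of a subgroup often have related roles. LDL1 belongs to the LSD1 family of histone demethylases known from animals, which remove methyl groups from lysine 4 of histone H3, and it is known for its part in flowering time and in the circadian clock.

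The seedlings were of ecotype Col-0, carried a fusion of LDL1 with green fluorescent protein (GFP) driven by the LDL1 promoter (LDL1pro::LDL1:GFP), and were harvested at 14 days under long days at 22°C. An anti-GFP antibody was used for 2 ChIP libraries, stated to be biological replicates, each from DNA pooled over several precipitations, with 1 input library of the same line. Whole plants were used, so the regions cannot be assigned to a cell type, and all 3 libraries carry the transgene. The deposited data used here are 1 set of 5928 ChIP regions for the pair of ChIP libraries and 1 set of input intervals. Each region has a position and no score or read count. Values below therefore have no replicate error and the depth of the ChIP libraries is unknown. A gene holds a region, in the sense used here, if any base of a region fell on the gene body or within 1 kb of an end of the gene.

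LDL1:GFP regions were found at 13 of the 125 MYB genes, or 10.4% (exact Clopper-Pearson 95% interval 5.65 to 17.1%). The background over all nuclear protein-coding genes was 12.2% (3350 of 27444), which lies inside that interval, so the family as a whole is not set apart by its number of regions. The body itself was overlapped in 8 of the 125 (6.40%, interval 2.80 to 12.2%), against 7.68% of all protein-coding genes. These intervals cover counting error only, and genes are not replicates. MYB genes were shorter and less varied in length than protein-coding genes at large. Their median length was 1781 bp (interquartile range 1474 to 2023 bp) against 2078 bp (1323 to 3030 bp). The shares above were not adjusted for gene length. In place the sets were similar, with a median distance from a chromosome end of 4.98 Mb against 5.36 Mb.

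Most MYB genes lay far from any region. The nearest region was more than 10 kb away for 84 of the 125, between 2 and 10 kb for 25, and between 1 and 2 kb for 3. The median distance was 17.6 kb, with an interquartile range of 5.11 to 40.6 kb, and over all protein-coding genes it was 16.6 kb (4.89 to 41.6 kb). At the edge of the 1 kb limit, MYB120 was the farthest gene still counted, at 940 bp, and MYB119 the nearest gene not counted, at 1265 bp. Next came MYB57 at 1.71 kb and MYB18 (current symbol LAF1), which acts in phytochrome A signalling, at 1.78 kb.

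**Figure D1:**
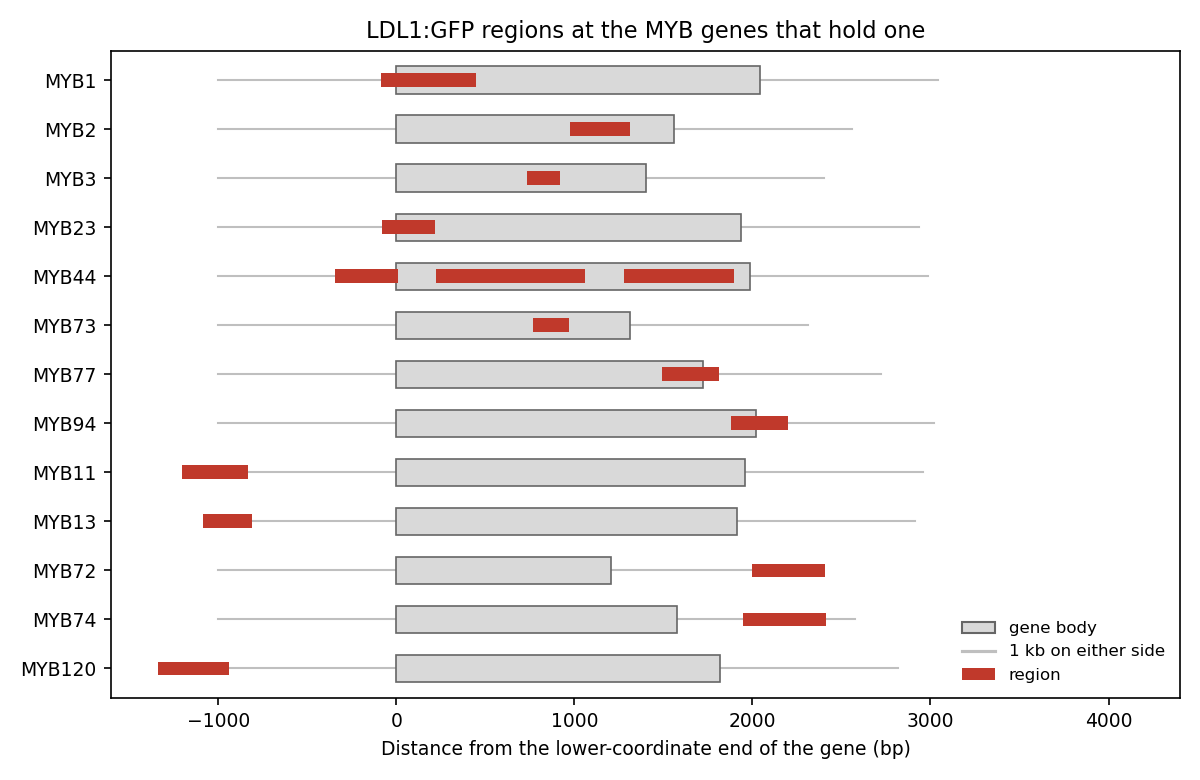
Each row is 1 of the 13 MYB genes that hold an LDL1:GFP region, drawn to scale with the horizontal axis in bp from the lower-coordinate end of the gene; grey boxes are gene bodies, grey lines the 1 kb on either side, and red boxes the regions. The 8 genes in the upper rows are overlapped by a region, the 5 in the lower rows have a region between 369 and 940 bp away, and MYB44 has 3 regions where every other gene has 1.

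The subgroup with most genes holding a region was subgroup 22, which comprises MYB44, MYB70, MYB73 and MYB77. These genes respond to abscisic acid, auxin and stress, and MYB44 is known for its part in stomatal closure and drought tolerance. A region overlapped the body of 3 of the 4, beside 7.68% of all protein-coding genes. The subgroups were written down after the regions at MYB genes had been seen, so this count is a description. MYB44 (AT5G67300, chr5:26854022-26856006) held regions of 355 bp (chr5:26853677-26854031), 836 bp (chr5:26854244-26855079) and 619 bp (chr5:26855300-26855918). These were separated by gaps of 212 and 220 bp and spanned 2242 bp from the first base to the last. Together they lay on 1465 of the 1985 bp of the gene, or 73.8%.

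Such cover was uncommon, though not unique to MYB44. Of the 2108 protein-coding genes with an overlapped body, 139 (6.59%) were covered over at least as large a share, and their median cover was 10.3%. Only 0.521% of all protein-coding genes (143 of 27444) held 3 or more regions. Among 2650 regions at protein-coding genes, 3.58% were at least 836 bp wide and 6.34% at least 619 bp wide. MYB44 lies 0.12 Mb from the end of chromosome 5, where genes in general held regions more often, and it is not alone at its locus. Its annotation overlaps that of the cytochrome P450 gene CYP81G1 by 791 bp, and the 619 bp region lies wholly within both genes. The 836 bp region covers the long non-coding RNA gene AT5G09855 and the 619 bp region the antisense RNA gene AT5G09865. Which of these genes a region belongs to cannot be told apart here.

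MYB77 (AT3G50060, chr3:18557607-18559326), which acts with auxin response factors in lateral root growth, held a region of 323 bp (chr3:18559099-18559421). It crossed the higher-coordinate end of the gene and reached 95 bp past it. At MYB73 (AT4G37260, chr4:17540490-17541799), a regulator in salt stress, a region of 202 bp (chr4:17541256-17541457) lay inside the gene with its midpoint at 66.2% of the gene's length, counted from the lower-coordinate end. HMA1, a chloroplast metal transporter gene, began 313 bp beyond that region. MYB70, the remaining gene of the subgroup, had its nearest region at 10.3 kb. Neither MYB77 (4.9 Mb from a chromosome end) nor MYB73 (1.04 Mb) lies in the outer 1 Mb.

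Among other regulators of stress and nutrient responses, MYB2 was overlapped and MYB13, MYB72 and MYB74 had a region beside them. MYB2 (AT2G47190, chr2:19375985-19377543), induced by drought and abscisic acid, held a region of 335 bp inside its body (chr2:19376962-19377296), 0.322 Mb from the end of chromosome 2. At MYB74 (AT4G05100), a salt stress gene of chromosome 4, a region of 467 bp (chr4:2620317-2620783) lay 369 bp away, with no other protein-coding gene within 1 kb. MYB74 was the only MYB gene with a region in a gene-poor bin, that is, a 1 Mb bin holding under 150 protein-coding genes, as found around the centromeres. At MYB13 (AT1G06180) a region of 278 bp (chr1:1888275-1888552) lay 809 bp away, between the gene and the long non-coding RNA gene AT1G04447, which was 546 bp from the region on its other side.

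MYB72 (AT1G56160), which acts in iron deficiency and in the systemic resistance induced by root bacteria, had a region beside it that lies on other genes. The region of 407 bp (chr1:21024384-21024790) lay 796 bp from MYB72 and overlapped the bodies of NF-YC2, a subunit of the nuclear factor Y complex, of AT1G56180 and of the non-coding AT1G56165.

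In all, 7 of the 18 MYB genes of abscisic acid, stress and nutrient responses held a region (38.9%, exact Clopper-Pearson interval 17.3 to 64.3%), beside the 12.2% of all protein-coding genes. Among the 107 MYB genes outside this group there were 6 (5.61%, interval 2.09 to 11.8%). No test of this difference was made, since the role groups were put together by hand with earlier results of these data known. For the same reason, neither interval can be read as setting a group apart from the background. Of the 7 genes, 3 (MYB44, MYB73 and MYB77) are the subgroup 22 genes described above. Each gene was placed in a single role group. Genes that also act in stress but were placed by another role therefore count among the 107, and the contrast depends on that choice. By chromosome place, a region was held by 2 of the 3 group members in the outer 1 Mb (background 33.4%), by 4 of the 14 in the inner arms (28.6%, background 8.77%) and by the 1 in a gene-poor bin (background 23.3%). The inner-arm count depends on the 1 Mb limit. MYB73 and MYB13 lay 1.04 and 1.89 Mb from a chromosome end, and MYB77 and MYB72 4.9 and 9.4 Mb. An outer zone of 2 Mb was not applied to this group. With gene bodies alone the group count was 4 of 18 in place of 7, namely MYB2, MYB44, MYB73 and MYB77, beside 7.68% of all protein-coding genes. No interval was computed for this smaller count, and it is not read as setting the group apart. The 11 members without a region included MYB15, a cold-response and lignin regulator, with its nearest region at 93.5 kb, and MYB62, a phosphate starvation gene, at 37.8 kb.

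**Figure D2:**
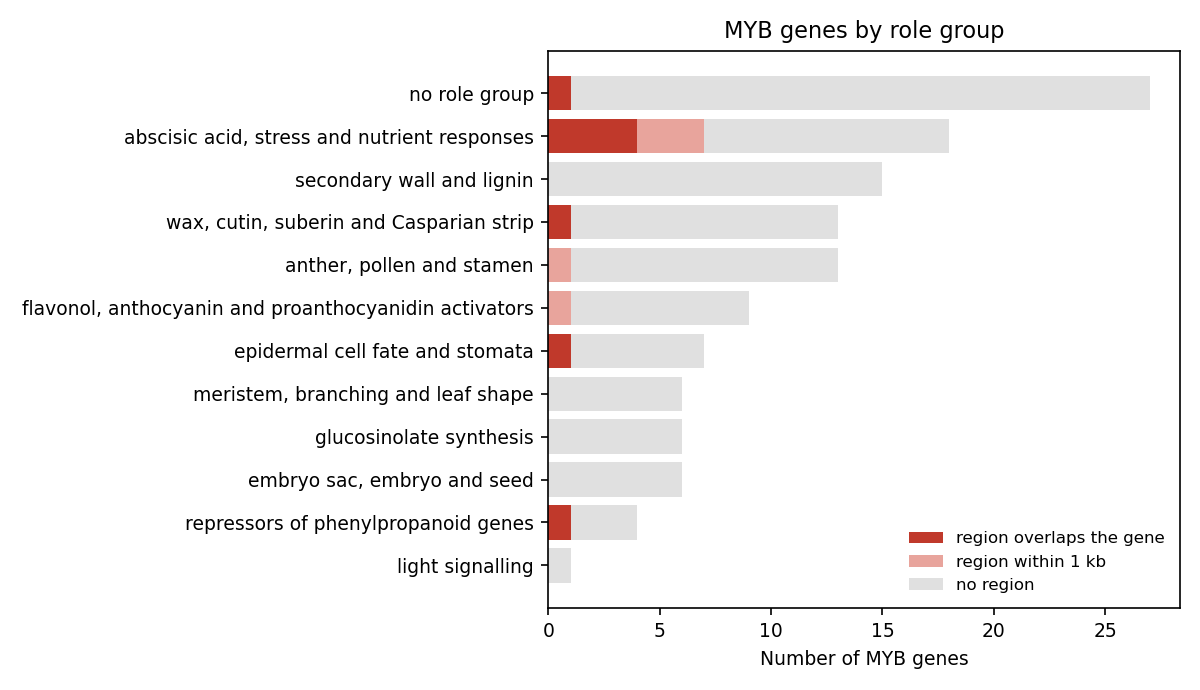
Horizontal bars count the MYB genes of each role group on a linear axis, split into genes overlapped by a region (dark red), genes with a region within 1 kb (light red) and genes without (grey). The stress group has 7 of its 18 genes with a region, and no other group has more than 1.

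The regulators of specialised metabolism gave counts too small to set them apart from the 12.2% of all protein-coding genes. Among the 4 repressors of phenylpropanoid genes, MYB3 (AT1G22640), which represses lignin and anthocyanin genes, had the narrowest region at any MYB gene, 185 bp inside its body (chr1:8006799-8006983). Its relatives MYB4, MYB32 and MYB7 had none, with nearest regions at 3.46, 6.98 and 26.8 kb. Of the 9 activators of flavonol, anthocyanin and proanthocyanidin synthesis, MYB11 alone was counted. MYB11 (AT3G62610), one of the flavonol regulators, lay 831 bp from a region of 374 bp (chr3:23153425-23153798) that overlapped the neighbouring chaperone gene ATERDJ3B. The related flavonol regulators MYB12 and MYB111 had their nearest regions at 2.56 and 45.03 kb.

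No region was found at the 6 regulators of glucosinolate synthesis (exact Clopper-Pearson upper limit 45.9%, beside 12.2% of all protein-coding genes). The nearest lay at 3.79 kb for MYB122, 11.5 kb for MYB34, 12.05 kb for MYB28, 31.5 kb for MYB51, 66.3 kb for MYB29 and 69.6 kb for MYB76. The anthocyanin genes MYB113, MYB114 and MYB90, which stand next to each other on chromosome 1, had nearest regions at 3.75, 7.46 and 14.1 kb, and PAP1 (MYB75) at 52.7 kb. None of the 6 pairs of MYB genes that are direct neighbours among protein-coding genes held a region.

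Among regulators of the wall, cuticle and epidermis, MYB94 and MYB23 held a region. None of the 15 genes of secondary wall and lignin formation held one (exact Clopper-Pearson upper limit 21.8%), an interval that includes the 12.2% of all protein-coding genes. Of the 13 genes of wax, cutin, suberin and the Casparian strip, MYB94 (AT3G47600, chr3:17539289-17541307), an activator of wax synthesis, was overlapped by a region of 320 bp (chr3:17541168-17541487). That region crossed the higher-coordinate end, with 140 bp on the gene and 180 bp outside it. MYB96, its close relative in wax synthesis, had its nearest region at 5.71 kb and MYB30 at 24.9 kb. Of the 7 genes of epidermal fate and stomata, MYB23 (AT5G40330, chr5:16127725-16129661), a trichome and root epidermis gene, was overlapped at its lower-coordinate end by a region of 297 bp (chr5:16127643-16127939). The related cell fate genes MYB66 (WEREWOLF) and MYB0 (GLABRA1) had nearest regions at 29.1 and 128 kb.

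Among 13 genes of anther, pollen and stamen development, MYB120, which acts in pollen tubes with MYB97 and MYB101, was the only one counted. The region of 397 bp (chr5:22323262-22323658) lay 940 bp from MYB120 (AT5G55020) and 926 bp from AT5G55010 on the other side. MYB97 and MYB101 had their nearest regions at 10.04 and 24.4 kb. No region was found at the 6 genes of meristem, branching and leaf shape or at the 6 genes of embryo sac, embryo and seed. The exact Clopper-Pearson upper limit was 45.9% for each of these groups of 6. Of the 27 MYB genes placed in no role group, MYB1 (AT3G09230, chr3:2833346-2835390) was overlapped at its lower-coordinate end by a region of 533 bp (chr3:2833259-2833791), with 446 bp of it on the gene. The interval of every group in this paragraph includes the 12.2% of all protein-coding genes, so these counts do not set any of them apart. In the groups of 6, even a count of 0 leaves that share inside the interval, so a low count could not have done so.

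**Figure D3:**
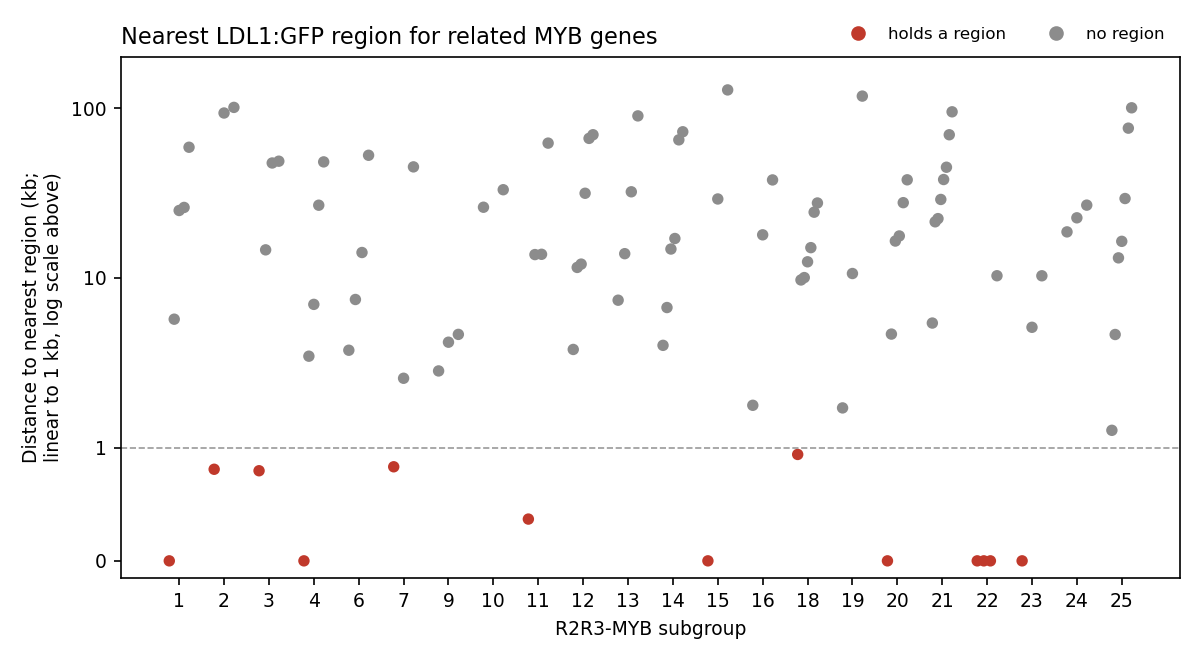
Each point is 1 of 96 MYB genes placed in 22 R2R3-MYB subgroups, with the distance in kb to its nearest LDL1:GFP region on an axis that is linear up to 1 kb (dashed line) and logarithmic above; red points hold a region and grey points do not. Subgroup 22 has 3 red points, 10 further subgroups have 1 and 11 have none.

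Of the 22 subgroups, which hold 96 of the 125 genes, 11 had at least 1 gene with a region, and subgroup 22 was the only one with more than 1. With 12.2% of all protein-coding genes holding a region and 2 to 8 genes in a subgroup, these counts are not read as a result about relatives. In subgroup 2 the contrast in distance was wide: MYB13 had a region at 809 bp, while MYB15 and MYB14 had theirs at 93.5 and 101 kb. In subgroup 11, MYB74 had a region at 369 bp, and MYB41, MYB102 and MYB49 at 13.7, 13.8 and 62.1 kb. Subgroup 20 held MYB2, and its other 5 genes lay between 4.66 kb (MYB108) and 37.8 kb (MYB62) from a region.

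The 15 regions at the 13 genes were set beside those at all protein-coding genes by their place along the gene. Of the 15, 5 lay inside the body, 5 crossed an end of the gene and 5 lay beside it. A region overlapped the body at 8 of the 13 genes (61.5%), against 62.9% of the 3350 protein-coding genes that held a region. The midpoint lay within 250 bp of a gene end for 5 of the 15 regions (33.3%), against 32.4% of 4150 pairs of gene and region over all protein-coding genes. Gene strand was not used here, so starts and ends of transcription are not told apart. Widths ran from 185 bp at MYB3 to 836 bp at MYB44, with a median of 355 bp (interquartile range 308.5 to 437 bp), beside 282 bp for regions at all protein-coding genes and 300 bp for all regions. Without MYB44 the median was 329 bp.

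In 7 of the 15 cases another protein-coding gene also lay within 1 kb of the region. At MYB72, MYB11 and MYB120 another gene was nearer to the region than the MYB gene, which left 10 of 13 when each region was given to its nearest gene. No region at a MYB gene lay on a tRNA, snRNA or rRNA gene. Input intervals covered 14 of the 15 over their whole length, and the region at MYB23 over 97.6%. The share over all 5928 regions was 76.8%, but only 2650 of these were at protein-coding genes, so the sets are not alike. With only regions covered whole by input, 12 MYB genes held one in place of 13. The share of all protein-coding genes was then 10.7% in place of 12.2%. At 10 of the 13 genes no further region lay within 10 kb. The exceptions were MYB44 and MYB11 near chromosome ends and MYB73, whose next regions were 3.82, 7.52 and 5.07 kb away. No such count over other genes is given here, so the spacing is not read as a trait of MYB genes.

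**Figure D4:**
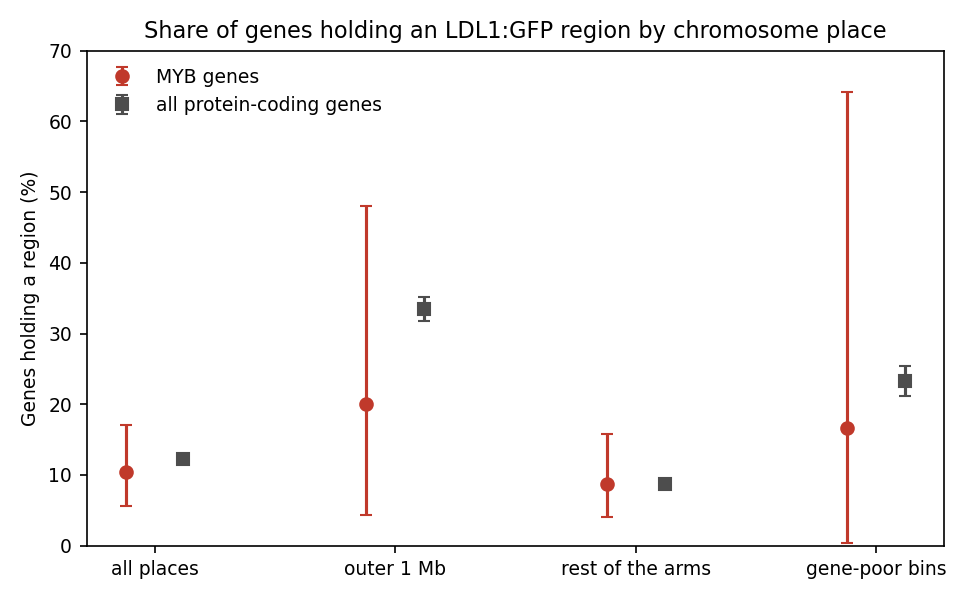
Points give the percentage of genes that hold an LDL1:GFP region, for MYB genes (red circles) and all protein-coding genes (grey squares), over all places, in the outer 1 Mb of the arms, in the rest of the arms and in gene-poor bins, with exact Clopper-Pearson 95% intervals as bars. In the rest of the arms the values are 8.65% and 8.77%, and in the outer 1 Mb 20% and 33.4%, with an interval for MYB genes that runs from 4.33 to 48.1%.

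By chromosome place, 9 of 104 MYB genes in the inner arms held a region (8.65%, exact interval 4.03 to 15.8%), against a background of 8.77%. In the outer 1 Mb there were 3 of 15 (20%, interval 4.33 to 48.1%), against 33.4% of protein-coding genes there, and without MYB44 2 of 14 (14.3%). In gene-poor bins there was 1 of 6, against 23.3%. The 3 genes of the outer zone were MYB44, MYB11 and MYB2. The other 12 included MYB106, a cuticle and trichome gene that lies 0.047 Mb from the end of chromosome 3 with its nearest region at 4.65 kb, and MYB12, 0.22 Mb from the end of chromosome 2. The interval for these 15 genes includes the background. Across chromosomes the share ran from 1 of 13 on chromosome 2 (7.69%) to 4 of 29 on chromosome 3 (13.8%), beside 15.3 and 13.2% of all protein-coding genes on these chromosomes.

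Over the lists of partners, targets and MYB relatives outside the naming rule, 7 of 63 genes held a region (11.1%, exact interval 4.59 to 21.6%), beside the background of 12.2%. The MYB relatives gave 2 of the 7. None of the 5 partners in the complex of MYB, bHLH and WD40 proteins that controls pigment and epidermal fate held one (TTG1, GL3, EGL3, TT8 and MYC1). Nor did any of the 7 small MYB repressors, although ETC1 and CPC, which repress trichome formation and promote root hairs, had regions at 1.13 and 1.58 kb. Among 5 3R-MYB genes and CDC5, 2 of 6 did. MYB3R1, a regulator of cell-cycle genes, was overlapped by a region of 279 bp (chr4:15790310-15790588), and MYB3R2 lay 479 bp from the wider of its 2 regions (714 bp, chr4:233404-234117), 0.236 Mb from a chromosome end.

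Of the 9 flavonoid enzyme genes, TT7, the flavonoid 3′-hydroxylase gene, was overlapped by a region of 384 bp (chr5:2562075-2562458). Of 14 glucosinolate enzyme genes, CYP79B2, which starts indole glucosinolate synthesis from tryptophan, was overlapped by a region of 359 bp (chr4:18525354-18525712), 0.059 Mb from the end of chromosome 4. Among 22 secondary wall genes, 3 held a region. Overlapped were the wall regulator NST2 (338 bp, chr3:22929275-22929612) and the lignin enzyme gene CCoAOMT1 (299 bp, chr4:16310475-16310773). The lignin enzyme gene CAD5 lay 100 bp from a region of 643 bp (chr4:16389041-16389683). Another protein-coding gene also lay within 1 kb of the regions named at MYB3R1, MYB3R2, TT7 and CAD5. The count over all lists fell from 7 to 5 when each region went to its nearest protein-coding gene.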

How the data were processed

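Chromosome, start and end of each ChIP region and input interval were used as deposited by the authors. Per the submitters' processing notes, the tools and build named are Bowtie, SICER and TAIR10, with no version or role. Region thresholds and the handling of replicates: not given in the sources used here. Only 21 of 5928 region widths were multiples of 200 bp. Starts were read as counted from 0 and are given 1-based on TAIR10. Input intervals covered 98.5% of the nuclear genome and give presence of reads, not depth.

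Gene names and positions came from the RefSeq table of TAIR10.1, which has the same nuclear chromosomes as TAIR10. Strand and sequence were not used here, so planned upstream and motif comparisons were not run. Counts were set beside all protein-coding genes with exact Clopper-Pearson intervals (scipy 1.17.1, Python 3.11.15), without tests. The gene-poor limit was scaled to the length of the last, incomplete bin of each chromosome.

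The naming rule for the members was chosen with earlier results of these data known, as were the role groups, subgroups and pathway lists, which were written from general knowledge of these genes. The subgroups were written after the regions at MYB genes had been seen. Named genes are all members with a region, their relatives and neighbours, and those just outside 1 kb. MYB106 and the farthest relatives were added after their values were seen. The names VND6, CCR1 and FAH1 match more than 1 gene and were assigned by locus. Separately, 3 names of the pathway lists matched no protein-coding gene and were left out of the counts. The overlap procedure was tested on simulated data and found 200 of 200 planted regions.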

Additional observations from a re-analysis of the deposited data

How the results depend on the processing

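The count of MYB genes with a region ran from 8 to 16 over 11 alternatives, beside the main 13. With gene bodies alone it was 8 of 125 (all genes 7.68%), and the stress group fell to 4. With only regions as wide as the median or wider it was 9 (all genes 5.66%), and genes with a region midpoint in the body fell from 7 to 4. It was 9 with 500 bp on either side, 16 with 2 kb and 10 with the nearest gene only, where the shares of all genes were 10.3, 15.6 and 9.02%. An outer zone of 2 Mb held 5 of 21 MYB genes with a region (23.8%), against 24.5% of all genes. In all, 74 of 77 recomputed values kept within the limit set for them, which was 1.5 times the main value for counts and the 95% interval of the main value for the outer-zone share and the median width. Some of these values had little or no room to move, so the tally does not measure robustness. No region at a MYB gene lay on a tRNA, snRNA or rRNA gene, so leaving such regions out could not change the MYB values. For the outer-zone share the limit was the wide interval of 4.33 to 48.1%. Leaving out MYB44 was chosen after seeing the data. Small role groups and 15 genes in the outer zone limit precision, and read depth is unknown. No paired analysis was possible because the regions are 1 set for both ChIP replicates and the input has a single library.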
